A study of Mus musculus with 4 samples.

Results

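The nuclear-encoded subunit genes of the respiratory chain were followed through 4 single-nucleus RNA libraries of mouse kidney. They were chosen by symbol: complex I genes (Nduf followed by a, b, c, s or v and a digit), complex III genes (Uqcr), complex IV genes (Cox4 to Cox8) and complex V genes (Atp5 followed by a letter), with assembly factors of the Ndufaf series and pseudogenes left out. This gave 80 of the 27998 genes measured, 35 for complex I, 8 for complex III, 20 for complex IV and 17 for complex V. Ndufa4 and Ndufa4l2 were counted with complex IV, and Atp5sl and Atp5s, by their symbols, with complex V. The symbol rule also brings in 3 genes that are not subunits in the strict sense: Atp5sl, now named Dmac2, whose product takes part in the assembly of complex I, Atp5s, now named Dmac2l, and Cox7a2l, whose product takes part in joining complexes into supercomplexes. It leaves out any subunit gene whose symbol has another form, so the 80 genes are not the full set of subunits. All 4 libraries came from whole kidneys of C57BL/6 mice at postnatal week 22, flash-frozen before a kit was used to free the nuclei, which were captured in droplets on a Chromium Chip G. In 2 libraries the mice were untreated and in 2 they received losartan, which blocks the type 1 receptor of angiotensin II. No genetic change is named for any library, and dose, route, length of treatment and sex were not given in the sources used here. No label says that libraries of a group come from separate animals. A p-value for losartan within 1 class or the whole kidney therefore measures the spread between these samples, which may be technical. Where library was a block, a p-value measures the spread left between classes of the same libraries, which may be technical too.

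The respiratory chain sits in the inner mitochondrial membrane. Complex I takes electrons from NADH and complex II takes them from succinate, complex III passes them to cytochrome c, complex IV hands them to oxygen, and the ATP synthase, complex V, uses the proton gradient that complexes I, III and IV build. Most subunits are encoded in the nucleus and imported, while a few core subunits of complexes I, III, IV and V are encoded by mitochondrial DNA, so both genomes must supply each of these complexes. In the kidney, the proximal tubule, the thick ascending limb of Henle's loop and the distal convoluted tubule are packed with mitochondria that fuel sodium transport.

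Nuclear RNA was counted as unique molecular identifiers (UMIs), from 42290414 to 59078762 per library, in 39654 barcoded nuclei. Of these, 36003 passed filters, 8579 and 9017 in the untreated libraries and 9036 and 9371 in the losartan libraries, with median depths between 3363 and 4230 UMIs. The nuclei formed 36 clusters, of which 31 were named from cell type markers and grouped into 16 classes, 13 of them with at least 50 nuclei in every library. A class name means likeness to a cell type in its markers. Pairs of libraries shared 21 to 29 cell barcodes. A proximal tubule cluster of 1478 nuclei came almost wholly from losartan library 1 (1439 nuclei, 97.4%). Proximal tubule nuclei made up 33.7% and 22.7% of untreated and 51.4% and 41.0% of losartan libraries, so the whole-kidney sums differ in cell mix. In lymphocyte nuclei, a list of 15 proximal tubule genes stood higher than in the mean of the other classes for 13 genes, with a median log2 difference of 1.90; the part this has in the comparison of that class with others was not tested.

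Stretches from 250 bases before to 50 bases after the start site were available from RefSeq (GRCm38.p6) for 66 of the 80 genes. They were searched on both strands for the letters of 4 factors known to act on mitochondrial genes. The NRF1 letters, GCGC repeated after 2 bases of any kind, were found for 16 of the 66 genes (24.2%) and in 6.23% of all 32851 promoters of this length. The YY1 letters AANATGGCG were found for 11 genes (16.7%, against 2.38% of all promoters), the letters AAGGTCA of the oestrogen-related receptors (ERR) for 7 genes (10.6%, against 4.72%), and the GABPA letters CCGGAAGT for 5 genes (7.58%, against 3.89%). The 4 motifs are not parts of each other, and a match is a description of letters, not of binding. The 3 genes for the c subunit of the ATP synthase ring, Atp5g1 (chr11:96075582-96075881, minus strand), Atp5g2 (chr15:102670998-102671297, minus strand) and Atp5g3 (chr2:73911277-73911576, minus strand), are shown because they encode the same mature protein from promoters that differ. Cox7b (chrX:106015450-106015749, plus strand) is shown as a complex IV gene that differed strongly between classes, and Ndufs4 (chr13:114388045-114388344, minus strand) as a complex I gene with a YY1 match. Capitals mark NRF1 matches in Atp5g2 and in the downstream part of Atp5g3, an ERR match read on the other strand in Atp5g3 (TGACCTT), and the YY1 match in Ndufs4; Atp5g1 and Cox7b held none of the letters in this window.
Atp5g1: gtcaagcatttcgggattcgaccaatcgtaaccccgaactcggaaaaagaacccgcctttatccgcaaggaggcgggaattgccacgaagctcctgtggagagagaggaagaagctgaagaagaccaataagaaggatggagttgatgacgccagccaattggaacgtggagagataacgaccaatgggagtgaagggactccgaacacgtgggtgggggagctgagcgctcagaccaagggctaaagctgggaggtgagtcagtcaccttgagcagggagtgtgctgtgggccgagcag
Atp5g2: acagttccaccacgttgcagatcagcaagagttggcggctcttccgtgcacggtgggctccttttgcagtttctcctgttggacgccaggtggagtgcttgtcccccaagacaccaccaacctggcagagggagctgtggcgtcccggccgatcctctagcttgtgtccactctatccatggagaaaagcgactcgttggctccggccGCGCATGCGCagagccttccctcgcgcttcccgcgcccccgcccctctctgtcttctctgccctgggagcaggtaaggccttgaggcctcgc
Atp5g3: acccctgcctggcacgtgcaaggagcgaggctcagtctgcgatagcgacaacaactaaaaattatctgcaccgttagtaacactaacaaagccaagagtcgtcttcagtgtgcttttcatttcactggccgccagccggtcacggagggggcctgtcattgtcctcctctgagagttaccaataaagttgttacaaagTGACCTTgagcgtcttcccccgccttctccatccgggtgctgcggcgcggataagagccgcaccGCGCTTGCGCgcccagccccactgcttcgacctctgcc
Cox7b: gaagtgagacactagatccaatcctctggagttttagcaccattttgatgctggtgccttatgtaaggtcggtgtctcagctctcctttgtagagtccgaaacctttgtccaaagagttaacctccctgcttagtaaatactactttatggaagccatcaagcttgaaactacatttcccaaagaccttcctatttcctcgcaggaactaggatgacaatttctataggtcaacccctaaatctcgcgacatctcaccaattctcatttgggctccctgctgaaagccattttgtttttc
Ndufs4: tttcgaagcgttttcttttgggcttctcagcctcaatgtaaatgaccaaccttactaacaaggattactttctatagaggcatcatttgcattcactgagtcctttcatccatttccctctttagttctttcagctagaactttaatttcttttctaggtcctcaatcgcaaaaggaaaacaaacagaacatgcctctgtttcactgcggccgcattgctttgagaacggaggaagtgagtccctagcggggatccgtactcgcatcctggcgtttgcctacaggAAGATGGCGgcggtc
The NRF1 match begins at base -42 from the start site in Atp5g2 and at base 13 in Atp5g3, and the YY1 match in Ndufs4 begins at 36. All 3 c subunit genes stood higher in the thick ascending limb than in the mean of the other classes, with values given further on. The median log2 difference of the thick ascending limb was 0.41 for 16 genes with the NRF1 letters and 0.37 for 47 without, and 0.40 for 7 with the ERR letters and 0.37 for 56 without. In the distal convoluted tubule the medians were 0.27 with and 0.30 without the NRF1 letters, and 0.20 with and 0.30 without the ERR letters.

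Together the 80 genes supplied 0.456% of the UMIs of the kept nuclei: 298452 UMIs from complex I, 84002 from complex III, 205310 from complex IV and 250505 from complex V. The genes lie on 19 chromosomes. The exons of 26 of them overlap an exon of another gene on the opposite strand, as Cox4i1 (GRCm38 chr8:120668222-120674207) does with Emc8, Ndufa4l2 (chr10:127514967-127517154) with Shmt2 and Ndufs1 (chr1:63143596-63176833) with Eef1b2, and since no source states that counting used strand, their values are uncertain to that extent. Every gene had at least 1 UMI, but 4 had under 100, each of them a tissue-restricted copy of a complex IV subunit: Cox6a2 with 51, Cox7b2 with 48, Cox8b with 58 and Cox8c with 2. Of the 80 genes, 79 passed the filter on low counts in the whole-kidney comparison, the exception being Cox8c, and 75 passed it in the comparison of classes.

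The first question was where in the kidney the chain is transcribed, summed as a share of all UMIs of a class in each library. In the thick ascending limb, the salt-reabsorbing segment that builds the medullary gradient, the 80 genes took 0.422% and 0.576% of UMIs in the untreated libraries (1, then 2) and 0.539% and 0.563% in the losartan libraries. The distal convoluted tubule, the next segment downstream, held 0.400%, 0.547%, 0.504% and 0.525% in the same order. The thick ascending limb was above the distal convoluted tubule in 4 of 4 libraries, by 0.0308 ± 0.00717 percentage points (SD, n = 4 libraries). The proximal tubule, the largest class with 13422 nuclei, held 0.327%, 0.457%, 0.371% and 0.376%, and did not stand apart from its neighbours in the order of classes, macrophages and the thin limb. Podocytes, the filter cells of the glomerulus, had the lowest mean, with 0.246%, 0.346%, 0.272% and 0.308%. Parietal epithelium, which lines Bowman's capsule, lay beside them at 0.237%, 0.338%, 0.283% and 0.351%, and the order of these classes differed between libraries. Mural and mesangial nuclei, the contractile cells of vessels and glomeruli, had the highest mean, 0.593%, and also the widest gap between groups, 0.434% and 0.463% in untreated against 0.724% and 0.749% in losartan libraries.

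**Figure D1:**
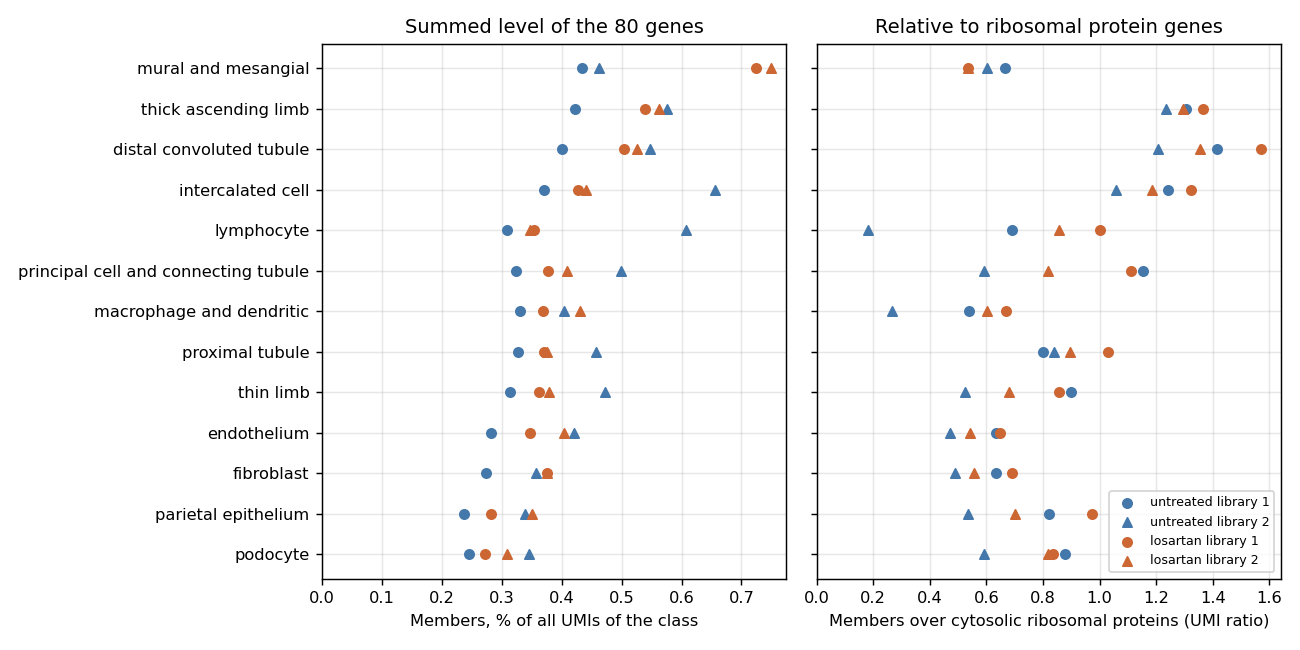
Left, share of all UMIs of a class (percent, horizontal axis) taken by the 80 subunit genes in each of the 13 classes; right, the ratio of their UMIs to those of cytosolic ribosomal protein genes. Each point is 1 library, coloured by group. On the left, untreated library 1 is the lowest point in 13 of 13 classes, and mural and mesangial nuclei are the class where both losartan points lie far above both untreated points, while on the right both losartan points of that class lie below.

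The libraries differed more than most neighbouring classes did. Untreated library 1 had the lowest summed share in 13 of 13 classes, and the highest came from untreated library 2 in 9 classes and from losartan library 2 in 4. Of the 12 steps between neighbours in the order of classes, 3 exceeded 1 SD over libraries with the same sign in 4 of 4: thick ascending limb over distal convoluted tubule, intercalated cells over lymphocytes (by 0.0685 ± 0.0191 points, SD, n = 4) and fibroblasts over parietal epithelium (by 0.0434 ± 0.0332 points, SD, n = 4). The complexes moved together from class to class. Over the 13 class means, the shares of complexes I and V had a Pearson correlation of 0.989, complexes III and IV 0.982, and complexes I and IV 0.865, each pair being read from the same libraries and depths. The correlation of the 80 genes with cytosolic ribosomal protein genes over the same 13 classes was 0.234.

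Relative to ribosomal protein transcripts, the order of classes changed. As means over the libraries, the 80 genes reached 1.39 times the ribosomal protein UMIs in the distal convoluted tubule, 1.30 times in the thick ascending limb and 1.20 times in intercalated cells, the acid-base cells of the collecting duct. In untreated library 2 the distal convoluted tubule (1.21) lay below the thick ascending limb (1.24). The ratio was 0.891 in the proximal tubule, 0.592 in fibroblasts, 0.585 in mural and mesangial nuclei and 0.519 in macrophages and dendritic cells. Mural nuclei, highest by share of UMIs, were therefore among the lowest by this ratio.

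Single genes were then compared between each class and the unweighted mean of the other 12, with library as a block. The 80 genes had been left out of the genes used for clustering, but the same nuclei were grouped by their other genes, so these calls sort genes by size of difference and are not an independent test of the classes. In the thick ascending limb 49 of 75 genes were called higher and 0 lower (edgeR quasi-likelihood test, Benjamini-Hochberg adjusted p under 0.05), against 27% of all 13865 genes called higher and 22.7% called lower. The count was 32 without losartan library 1, a fit whose share of all genes called is not given here. The median log2 difference of the 75 genes was 0.37. By complex, 21 of 35 genes of complex I were higher (median 0.38), 4 of 8 of complex III (median 0.27), 9 of 15 of complex IV (median 0.32) and 15 of 17 of complex V (median 0.44). The 17 genes of complex V include Atp5sl and Atp5s.

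Among complex I genes, Ndufs1, the largest subunit of the NADH-oxidising arm, stood at 166.2, 183.0, 179.5 and 217.3 CPM (UMI counts per library of equal size, from edgeR) in the thick ascending limb (untreated 1 and 2, losartan 1 and 2), against a mean of 100.8 CPM in the other classes, a log2 difference of 0.96. Ndufs4, an accessory subunit whose loss causes Leigh-like disease in mice, stood at 237.8, 278.0, 264.9 and 292.6 CPM against 164.7, a log2 difference of 0.76. Ndufs3 and Ndufv2, both core subunits, had log2 differences of 0.94 and 0.88. Every one of these library values was above the mean of the other classes. In complex III, Uqcrc2, a core protein of the matrix side, had a log2 difference of 0.73. In complex V, Atp5a1 and Atp5b, which form the catalytic head, had log2 differences of 0.77 and 0.74. The 3 c subunit genes had smaller ones, 0.47 for Atp5g3, 0.44 for Atp5g1 and 0.38 for Atp5g2, with adjusted p-values of 0.00245, 0.000732 and 0.00109 (edgeR).

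In the thick ascending limb, 9 of 15 complex IV genes were called higher and 0 lower. Cox7b, a small subunit encoded on the X chromosome (GRCm38 chrX:106015700-106022450), stood at 135.1, 180.9, 179.0 and 199.5 CPM in the thick ascending limb against 84.1 CPM in the other classes (log2 difference 1.13 ± 0.0878, SE; edgeR adjusted p = 2.7e-15). In the distal convoluted tubule it stood at 133.6, 176.3, 170.4 and 192.8 CPM (log2 difference 1.08). Each of the 8 values was above the mean of the other classes. Cox8a, another small subunit, differed by 0.37 in the thick ascending limb, and Cox6a1 by 0.40. Cox4i1, the regulatory subunit found in most tissues, stood at 78.3, 138.9, 126.9 and 130.1 CPM there, against 110.1, and was not called. Ndufa4, a complex IV subunit despite its symbol, stood at 62.1, 91.4, 83.7 and 96.8 CPM against 81.8 and was not called either.

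The gene that set these segments apart most was Atp5sl (GRCm38 chr7:25619414-25625551), the complex I assembly factor. It stood at 135.9, 151.2, 193.1 and 195.2 CPM in the distal convoluted tubule against 56.9 CPM in the other classes (log2 difference 1.89 ± 0.0991, SE; edgeR adjusted p = 2.8e-21), and at 109.7, 146.8, 166.0 and 161.8 CPM in the thick ascending limb (1.66). It was also called higher in intercalated cells (log2 difference 1.19), the proximal tubule (0.91), principal cells and connecting tubule (0.60) and lymphocytes (0.41), where the direction turned (-0.07) when the 80 genes were kept among the clustering genes. In lymphocytes it was not called without losartan library 1 or without losartan library 2 (log2 difference 0.34 and 0.32; edgeR adjusted p = 0.114 and 0.118). In parietal epithelium it was lower by a log2 difference of -1.56, in fibroblasts by -1.22 and in endothelium by -0.97, and it was called lower in mural nuclei too. Of the lymphocyte libraries, the untreated ones stood at 55.6 and 35.4 CPM, below the mean of 65.3 in the other classes, and both losartan ones were above it, the higher at 96.4 CPM.

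**Figure D2:**
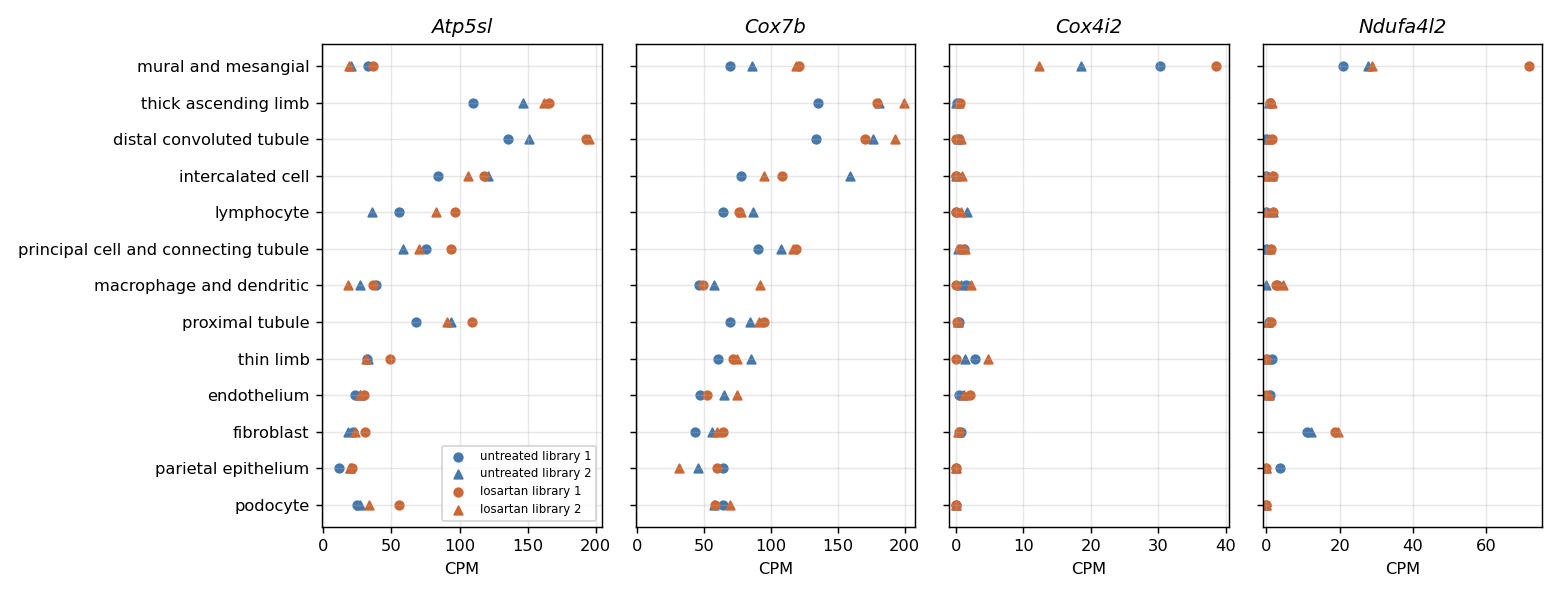
Level (CPM, horizontal axis) of Atp5sl, Cox7b, Cox4i2 and Ndufa4l2 in each class; each point is 1 library, coloured by group. Atp5sl and Cox7b peak in the thick ascending limb and distal convoluted tubule, while Cox4i2 and Ndufa4l2 are near 0 there and stand out in mural nuclei, Ndufa4l2 also in fibroblasts.

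In the distal convoluted tubule 36 of 75 genes were called higher and 0 lower (26.2% and 24.4% of all genes), with a median log2 difference of 0.27. Of these 36 genes, 34 were also called higher in the thick ascending limb, which is 94.4% of the distal list and 69.4% of the thick limb list. Ndufs1, at 174.3, 176.6, 184.2 and 206.9 CPM, and Ndufs4, between 260.5 and 305.9 CPM, had log2 differences of 0.95 and 0.86. In intercalated cells 14 genes were higher and 0 lower (17.5% and 16.6% of all genes), and each of the 14 was also higher in the thick ascending limb. The proximal tubule differed from these: 15 genes were higher and 5 lower (32% and 32.8% of all genes), and the median log2 difference was 0.01. The 5 lower genes were Atp5o, Cox7a2l, Ndufa4, Ndufs5 and Uqcrh.

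Genes of neighbouring steps were read in the same comparison. All 4 genes of complex II, which is encoded wholly in the nucleus, were higher in the thick ascending limb (median log2 difference 0.57) and in the distal convoluted tubule (0.70). Sdhb, its iron-sulfur subunit, stood at 74.1, 89.3, 104.3 and 97.5 CPM in the thick ascending limb, each above the mean of 57.4 elsewhere. Of 17 citric acid cycle genes, 16 were higher and 1 lower in the thick ascending limb (median 0.62), and 14 were higher and 1 lower in the distal convoluted tubule. Of 13 complex I assembly genes, 7 were higher and 0 lower in the thick ascending limb, and of 24 assembly genes for complexes III to V, 11 were higher and 1 lower. The 13 subunits encoded by mitochondrial DNA did not follow: in the thick ascending limb 0 were higher and 4 lower (median -0.44), in the distal convoluted tubule 0 and 12, and in the proximal tubule 0 and 13 (median -1.06). These transcripts are made outside the nucleus, and what of them reaches a nuclear library was not tested.

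Among 12 regulators of mitochondrial genes, 6 were higher in the thick ascending limb and 0 lower. Esrrb, an oestrogen-related receptor, stood at 704, 610, 630 and 919 CPM against 81.6 in the other classes (log2 difference 4.51), and Ppargc1a, the coactivator PGC-1alpha, at 1436, 1309, 1412 and 1661 CPM against 319 (2.72). Esrrg, a related receptor, stood at 4164, 3732, 4213 and 4211 CPM against 1850 (1.88). The libraries of the class lay above the mean of the other classes in each case. Ppargc1b, Esrra and Polrmt, the mitochondrial RNA polymerase, had log2 differences of 1.75, 1.23 and 0.78. Nrf1 (0.09), Yy1 (0.06), Tfam (0.31) and Gabpa (0.25) were not called.

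**Figure D3:**
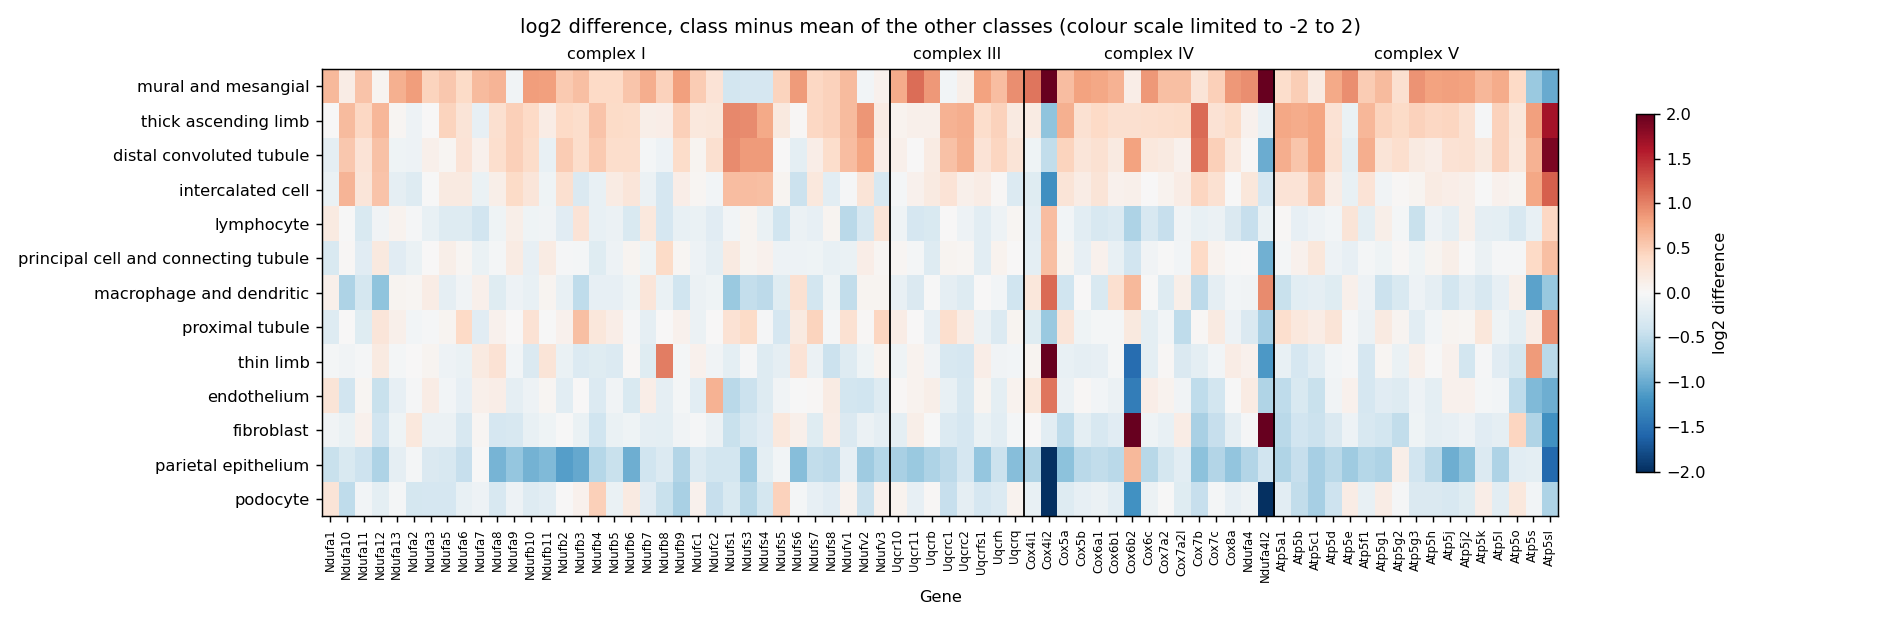
Log2 difference of the subunit genes shown (columns, grouped by complex) between 1 class and the mean of the others (rows); red is higher, blue is lower, and colours are limited to -2 to 2. The mural, thick ascending limb and distal convoluted tubule rows are mostly red and the parietal epithelium row mostly blue, and Atp5sl, the last column, is blue in the mural row and dark red in the distal tubule rows.

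Lower levels were most common in parietal epithelium, where 30 of 75 genes were called lower and 0 higher (9.3% and 14.1% of all genes), with a median log2 difference of -0.54. The count was 15 without losartan library 1 and 13 without the library block, fits whose share of all genes called is not given here. The class held 57 to 106 nuclei per library. Podocytes had 11 genes lower and 1 higher (17% and 15.2% of all genes). Atp5c1, the rotating stalk of the ATP synthase, was lower there at 48.9, 86.0, 34.9 and 67.0 CPM against 101.4 (log2 difference -0.66), and the higher gene was Ndufb4 (0.47). In endothelium 18 genes were lower and Ndufc2 alone was higher (25.6% and 23.2% of all genes), Ndufc2 at 39.4, 62.7, 46.2 and 58.6 CPM against 32.2. Macrophages and dendritic cells had 13 genes lower and 0 higher (19.7% and 24.2%). Lymphocytes had 9 lower and 1 higher, Atp5sl (18.5% and 22.2%). Principal cells with connecting tubule had 3 higher, Atp5sl, Cox7b and Ndufb8 (21.2%). By level, 48 of the 75 genes had their lowest class mean in parietal epithelium and 11 in podocytes.

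Thin limb nuclei had 3 genes higher, Atp5s, Cox4i2 and Ndufb8, and 8 lower (16.9% and 15.2% of all genes). Cox4i2 was called on the fitted log scale at 2.89, 1.42, 0 and 4.73 CPM, although the arithmetic mean of the other classes, which includes mural nuclei, was 2.54. Ndufb8 (GRCm38 chr19:44548572-44555440) was higher at 57.8, 126.7, 54.2 and 90.8 CPM against 41.8 in the other classes (log2 difference 1.02). Its 4 values were all above that mean but differed more than 2 times among themselves. Fibroblasts had 4 genes higher and 21 lower (27.1% and 25.6%). Among the higher ones were Atp5o and 2 copies of complex IV subunits with a narrow tissue range, Cox6b2 and Ndufa4l2.

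Several complex IV subunits exist as a common form and a tissue-restricted copy. Cox4i2 (GRCm38 chr2:152754173-152765037), the oxygen-sensitive copy of Cox4i1, had 149 UMIs in all, of which 53 (35.6%) lay in mural and mesangial nuclei, a class with 1.12% of the UMIs. It stood at 30.3, 18.5, 38.5 and 12.3 CPM there against 0.654 CPM in the other classes (fitted log2 difference 5.91; edgeR adjusted p = 1.0e-15). Ndufa4l2, the hypoxia-inducible copy of Ndufa4, stood at 21.0, 27.7, 71.8 and 28.7 CPM in mural nuclei against 2.04 (fitted log2 difference 5.41) and at 11.1, 12.1, 18.8 and 19.6 CPM in fibroblasts (4.11). Of its 445 UMIs, 202 (45.4%) lay in fibroblasts and 82 (18.4%) in mural nuclei. The common forms Cox4i1 and Ndufa4 had log2 differences of 1.06 and 0.93 in mural nuclei and 0.00 and -0.02 in fibroblasts, the last pair not called.

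Cox6b2 (GRCm38 chr7:4751792-4753094), known as the testis copy of Cox6b1, stood at 40.7, 31.7, 44.8 and 38.7 CPM in fibroblasts against 9.33 (log2 difference 2.28), with 500 UMIs (22.9% of its total) in that class. Cox7b2, another copy linked to testis, had 35 of its 48 UMIs (72.9%) in podocytes, a class with 1.20% of the UMIs. The untreated libraries held 21 and 7 of them and the losartan libraries 3 and 4. Cox6a2, the heart and muscle copy of Cox6a1, had 39 of 51 UMIs (76.5%) in the proximal tubule, which held 46.8% of the UMIs. Cox8b, a muscle and brown fat copy, reached its highest level in adipocytes, with 8 UMIs (13.8% of its total). Of these copies, Cox4i2, Ndufa4l2 and Cox6b2 had enough counts for the comparison of classes.

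Mural and mesangial nuclei had 50 genes called higher and 3 lower (19.5% and 13.6% of all genes), with a median log2 difference of 0.60. The 3 lower genes were Atp5sl, Ndufs1 and Ndufs4, each of which was called higher in the thick ascending limb and the distal convoluted tubule. Cox4i1 stood at 128.1, 132.4, 259.2 and 319.9 CPM there, Cox8a at 128.1, 155.5, 266.2 and 207.1 CPM and Atp5g3 at 76.8, 77.0, 131.3 and 133.3 CPM. In all 3 genes, both losartan libraries were above both untreated libraries. Ribosomal protein genes stood out in the same nuclei, with 71 of 82 called higher (median 0.96), as did all 13 mitochondrially encoded subunits (median 1.60), whereas citric acid cycle genes did not (1 of 17 higher, 4 lower). Some nuclei were rich in ribosomal protein transcripts. Nuclei with over 2% of their UMIs from ribosomal protein genes numbered 4 of 122 and 6 of 175 in the untreated libraries and 6 of 77 and 8 of 95 in the losartan libraries. They held 7.36% and 6.33% of the class's UMIs in untreated and 24.2% and 25.2% in losartan libraries. Without them, a choice made after seeing the data, the summed share of the 80 genes was 0.306%, 0.406%, 0.462% and 0.436%, and 6 genes were called higher, with a median of 0.11. Without losartan library 1 the count was 28, and 9 when the 80 genes were kept among the clustering genes. The share of all genes called is not given for these refits. Whether the counts of 6, 28 and 9 exceed it cannot be read from them. Across mural nuclei of 1 library, the share of the 80 genes and that of ribosomal protein genes had Spearman correlations of 0.507 to 0.625. The range was 0.148 to 0.381 in the thick ascending limb, 0.366 to 0.52 in fibroblasts and 0.3 to 0.477 in endothelium. In lymphocytes of untreated library 2 the correlation was 0.648. Both shares have the same denominator.

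**Figure D4:**
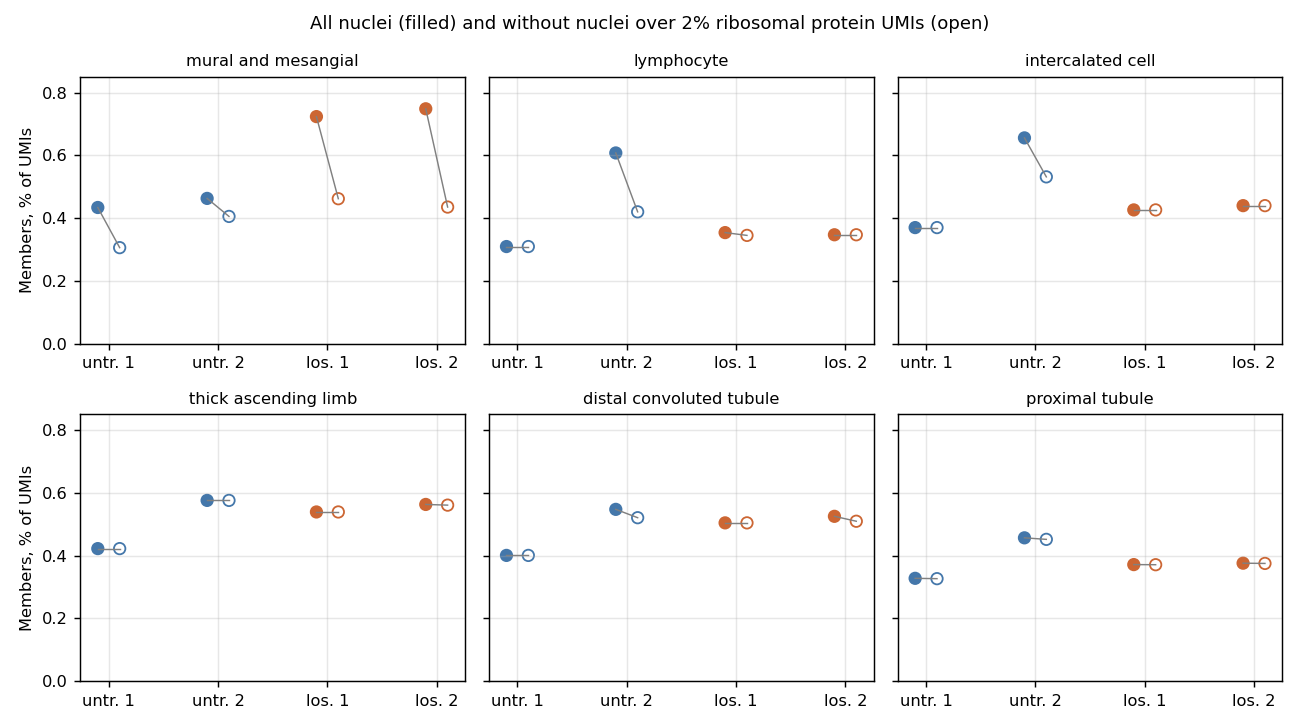
Share of UMIs (percent, vertical axis) taken by the 80 subunit genes in 6 classes, by library; filled points are all nuclei and open points leave out nuclei above 2% ribosomal protein UMIs. In mural nuclei the losartan libraries drop from 0.724% and 0.749% to 0.462% and 0.436%, and in lymphocytes untreated library 2 drops from 0.608% to 0.420%; the thick ascending limb and proximal tubule points hardly move.

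Such nuclei also formed a cluster of their own. Fibroblast was the marker set with its best score, but the naming rules left the cluster unnamed. Its 577 nuclei, 179 and 96 from the untreated and 139 and 163 from the losartan libraries, were 1.60% of all nuclei and held 1.69% of the UMIs but 12.9% of those from the 80 genes. The 80 genes made up 3.48% of their UMIs, ribosomal protein genes 5.28% and mitochondrially encoded genes 3.30%. Haemoglobin genes (Hbb-bs, Hba-a1 and Hba-a2) led the cluster, followed by Chchd10 and Chchd2, which encode small mitochondrial proteins, and Gpx1. It entered the whole-kidney sums and no class.

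The second question was whether losartan changed the chain. In the whole kidney, 0 of 79 genes passed the test (edgeR, adjusted p under 0.05), as did 0% of all 18410 genes, while 5 genes, all higher (Atp5sl, Atp5a1, Ndufb4, Atp5s and Ndufa4l2), had an unadjusted p under 0.05, against 21.9% of all genes; DESeq2 called 1, Atp5sl, among 1611 genes in all. The summed share was 0.415% and 0.509% in untreated (mean 0.462 ± 0.0660, SD, n = 2) and 0.433% and 0.459% in losartan libraries (0.446 ± 0.0182, SD, n = 2), both losartan values lying between the untreated ones. The median log2 change of the 79 genes was 0.09, against -0.01 over all genes, with 54 genes above 0 and 25 below. Both losartan libraries were above both untreated libraries for 24 genes (27.8% of all genes) and below for 4, Cox6b2, Cox7b2, Cox7a1 and Ndufa2 (29.1%). The medians by complex were 0.12, 0.03, 0.04 and 0.09 for complexes I, III, IV and V. In a sum over the whole kidney, fewer cells of a type and less RNA per cell cannot be told apart. The median ranged from -0.03 without untreated library 1 to 0.21 without untreated library 2, and it was -0.06 with total counts alone as the scale, which moved the median of all genes to -0.16.

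The gene with the smallest p was again Atp5sl, at 62.2 and 67.3 CPM in untreated and 106.5 and 85.4 CPM in losartan libraries, with no overlap (log2 change 0.57 ± 0.138, SE; edgeR adjusted p = 0.134). With the replicate number as a block the adjusted p was 0.0498 (edgeR; 12.3% of all genes were called in that fit), and with the same number of nuclei drawn per class from each library the log2 change was 0.32 (edgeR adjusted p = 0.417). Atp5a1, the alpha subunit of the catalytic head, stood at 166.6 and 164.0 CPM against 217.4 and 204.5 (0.35; edgeR adjusted p = 0.149). Ndufb4 stood at 39.5 and 46.8 CPM against 56.5 and 53.6 (0.35; edgeR adjusted p = 0.188). Neither gene's groups overlapped. On the lower side, Cox6b2 stood at 18.2 and 11.8 CPM in untreated against 7.68 and 11.2 CPM in losartan libraries (-0.67; edgeR adjusted p = 0.258), and Ndufa2 at 37.7 and 44.8 against 37.4 and 37.0 (-0.15). Cox7b2 had too few UMIs to read, 0.640 and 0.219 against 0.0854 and 0.184 CPM. Of the isoform pairs, Cox4i1 stood at 107.3 and 132.1 against 110.8 and 126.2 CPM, and its groups overlapped. Ndufa4l2 stood at 1.89 and 1.97 against 3.03 and 2.72 CPM (0.57; edgeR adjusted p = 0.213). The c subunit genes overlapped between groups, Atp5g1 standing at 47.2 and 68.1 against 59.5 and 55.1 CPM, Atp5g2 at 52.9 and 58.5 against 56.5 and 57.4, and Atp5g3 at 65.5 and 68.5 against 66.2 and 65.0.

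In the lists read beside the 80 genes, 0 genes passed the test in the whole kidney. Median log2 changes were 0.14 for complex II, 0.18 for the citric acid cycle, 0.26 for complex I assembly, 0.20 for the regulators and 0.06 for the mitochondrially encoded subunits. Ribosomal protein genes had a median of -0.31, with 5 of 84 above 0, and proximal tubule genes a median of 0.82, with 14 of 15 above 0. The share of UMIs from the 15 proximal tubule genes moved the same way as the share of proximal tubule nuclei given above. With the same number of nuclei drawn per class from each library, the median log2 change of the subunit genes was 0.09 and 0 were called. The median was 0.09 with all nuclei too. The draw also left out adipocytes and all unnamed nuclei, among them a cluster with 12.9% of the UMIs of the 80 genes. It thus changed more than the mix of classes.

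Within the 13 classes, 0 of the subunit genes passed the same test; with DESeq2 1 gene passed, Cox6b2 in the proximal tubule, where it called 314 genes in all. CPM in these fits are scaled within 1 class, so they differ from those in the comparison of classes. At an unadjusted p under 0.05 (edgeR) there were 4 of 73 genes in the distal convoluted tubule (9.58% of all genes), 5 of 74 in fibroblasts (8.59%), 4 of 73 in lymphocytes (23.2%), 2 of 70 in macrophages and dendritic cells (8.63%), 1 of 72 in endothelium (4.93%) and 1 of 75 in the proximal tubule (11.6%). There were 0 in intercalated cells (10.5%), parietal epithelium (6.99%), podocytes (7.71%), principal cells and connecting tubule (4.53%) and the thin limb (1.88%). Mural and mesangial nuclei came closest. There 69 of 73 genes were above 0 with a median log2 change of 0.76, 41 had an unadjusted p under 0.05 (13% of all genes), 59 had both losartan libraries above both untreated ones (22.4%), and 0 were called, against 0.577% of all 8148 genes. Cox4i1 stood at 138.7 and 143.8 CPM in untreated and 293.1 and 354.5 CPM in losartan libraries (1.19 ± 0.209, SE; edgeR adjusted p = 0.0509). Uqcrq, a small complex III subunit, stood at 52.9 and 56.9 against 142.6 and 138.6 CPM (1.35; edgeR adjusted p = 0.0599). Mitochondrially encoded subunits went with them, 11 of 13 being called higher (median 1.72), as did ribosomal protein genes (3 called, median 0.94). Without the nuclei above 2% ribosomal protein UMIs the median of the subunit genes was 0.35. Keeping nuclei with at most 2% mitochondrial UMIs gave a median of -0.00, with 28 of 56 genes above 0. With the replicate number as a block 9 genes were called in this class, and 8, 6 and 1 without untreated library 1, untreated library 2 and losartan library 1; over all genes these fits called 3.61%, 6.81%, 3.31% and 0.745%. The 15 proximal tubule genes took 0.372% and 0.164% of its UMIs in untreated and 0.635% and 0.586% in losartan libraries. Without the 10% of nuclei richest in those UMIs in each library, the median of the subunit genes was 0.57.

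**Figure D5:**
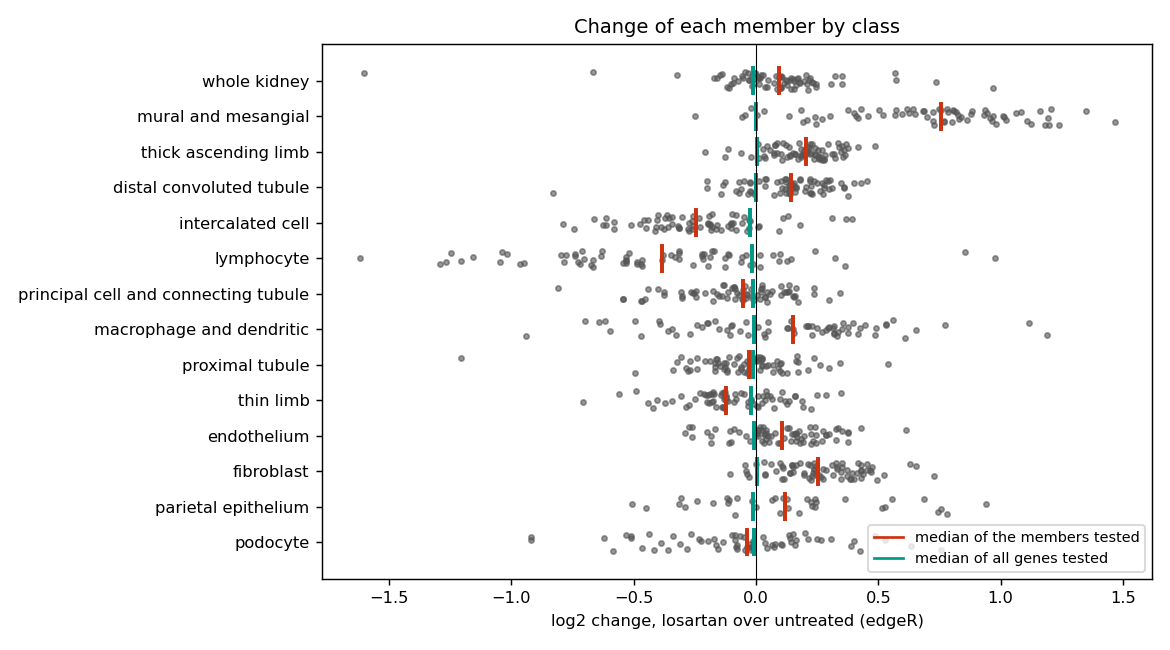
Log2 change with losartan of each tested subunit gene (points) in the whole kidney and in each class, with a red bar at the median of those genes and a green bar at the median of all genes tested. The mural and mesangial genes centre on 0.76, while lymphocytes and intercalated cells centre below 0, at -0.39 and -0.24; 0 genes passed the test.

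In the thick ascending limb 69 of 74 genes were above 0, with a median log2 change of 0.20, but 2, Ndufb9 and Atp5sl, had an unadjusted p under 0.05 (10.2% of all genes), 14 had both losartan libraries above both untreated ones (19.8%) and 0 were called (0.376% of all genes). Ndufb9 had the smallest p, at 52.0 and 70.6 against 80.02 and 83.53 CPM (0.42; edgeR adjusted p = 0.433). The median was -0.01 without untreated library 1 and 0.48 without untreated library 2, when 3 genes were called (1.46% of all genes). The 15 proximal tubule genes took 0.167% and 0.102% of the UMIs of this class in untreated and 0.370% and 0.325% in losartan libraries. Without the 10% of nuclei richest in those UMIs, taken within each class and library, the median was 0.18. Fibroblasts had 68 of 74 genes above 0 with a median of 0.25, 31 of them with both losartan libraries above both untreated ones (19% of all genes) and 0 called (0.0229%). Ndufa4l2 led there, at 10.7 and 11.9 against 18.3 and 19.2 CPM (0.73; edgeR adjusted p = 0.428), its groups not overlapping. Untreated library 1 was the lowest for 61 of the 74 genes, and the median was 0.09 without it and 0.53 without untreated library 2. The proximal tubule genes took 0.192% and 0.137% of fibroblast UMIs in untreated and 0.428% and 0.311% in losartan libraries, and the median was 0.24 without the nuclei richest in them. In the distal convoluted tubule 56 of 73 genes were above 0 (median 0.14; 0.141% of all genes called), 13 with both losartan libraries above both untreated ones (19.9% of all genes) and 2 below (20.1%), Atp5sl standing at 128.8 and 143.4 against 181.9 and 185.3 CPM (0.43; edgeR adjusted p = 0.221). Here untreated library 1 was the lowest for 65 of the 73 genes, and the median turned to -0.09 without it and was 0.44 without untreated library 2. The proximal tubule genes took 0.163% and 0.0979% in untreated and 0.330% and 0.326% in losartan libraries, and the median was 0.11 without the nuclei richest in them.

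Endothelium and macrophages with dendritic cells had more genes above 0 than below, 57 of 72 (median 0.11) and 44 of 70 (median 0.15), as did parietal epithelium, 23 of 36 (median 0.12). Without untreated library 1 the medians of the first pair were -0.14 and -0.02. Lymphocytes and intercalated cells went the other way. In lymphocytes 12 of 73 genes were above 0 (median -0.39; 1.27% of all genes called, 0 of the 73), and in intercalated cells 9 of 72 (median -0.24; 0.676% called, 0 of the 72). In both, untreated library 2 stood above the others: its summed share was 0.608% in lymphocytes, where the other libraries held 0.310% to 0.354%, and 0.656% in intercalated cells, where they held 0.370% to 0.440%. In lymphocytes 108 of its 335 nuclei (32.2%) were above 2% ribosomal protein UMIs, and the share was 0.420% without them. The lymphocyte class pooled a cluster named from B cell markers (180 nuclei) with another named from T and NK cell markers (561 nuclei). The B cell cluster held 34 and 132 untreated and 8 and 6 losartan nuclei, the other 125 and 203 against 112 and 121. The subunit genes took 0.741% of UMIs in the B cell cluster and 0.3755% in the other. The part of this mix in the losartan comparison was not tested. The medians without untreated library 2 were 0.26 and 0.29, with 4 and 1 calls (11.8% and 1.79% of all genes in the same fits). Leaving out untreated library 1 instead gave medians of -0.81 and -0.58, and 40 and 15 calls (30.2% and 6.39% of all genes). Without the 10% of nuclei richest in UMIs of the 15 proximal tubule genes, taken within each class and library, the medians were -0.47 and -0.19. Against that lean, Atp5sl in lymphocytes stood at 61.3 and 41.2 in untreated and 106.7 and 91.5 CPM in losartan libraries (0.98; edgeR adjusted p = 0.0953). Podocytes had 26 of 65 genes above 0 (median -0.04), principal cells and connecting tubule 28 of 73 (median -0.05) and the thin limb 24 of 72 (median -0.12). In these 3 classes, endothelium, macrophages and parietal epithelium, 0 genes were called. Over all genes, 0.0195% were called in parietal epithelium and 0.214% in podocytes, and 0% in endothelium, macrophages, principal cells and the thin limb.

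In the proximal tubule 31 of 75 genes were above 0, the median was -0.03 and 0 were called (0% of all 15726 genes). Cox6b2 had the smallest p, at 18.2 and 10.7 CPM in untreated and 5.19 and 7.38 CPM in losartan libraries (-1.20; edgeR adjusted p = 0.292), and it stood lower in the distal convoluted tubule too (16.9 and 20.4 against 7.64 and 13.4 CPM). In neither class did the groups overlap. In fibroblasts, where its level was highest, it stood at 39.4 and 31.0 against 43.7 and 37.9 CPM (0.21), and the groups overlapped. The losartan effect was compared between the thick ascending limb and the proximal tubule in 1 fit with library as a block. Untreated library 1 was the lowest for 70 of 74 genes in the thick ascending limb and 65 of 75 in the proximal tubule. Untreated library 2 was the highest for 25 and 67 of them. The difference between the 2 effects was not refitted with a library left out. The difference was positive for 71 of 74 genes, with a median of 0.23 against 0.02 over all genes, and 17 had an unadjusted p under 0.05 (9.83% of all genes). None passed the adjusted test (0 of 74; smallest adjusted p = 0.301, edgeR), against 0.0386% of all 15540 genes.

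The genes outside the set whose class pattern was most like the summed level of the 80 genes were found by Pearson correlation over the 13 class means. They were Nrtn (0.907), which encodes the growth factor neurturin, 2010107E04Rik (0.899), Slc25a5 (0.897), the adenine nucleotide carrier of the inner membrane, Mtx1 (0.893), part of the outer membrane, and Acadvl (0.878), which starts the oxidation of very long-chain fatty acids. All 13 points share libraries and depth, so these values describe likeness and carry no test. The set was chosen by symbol, so a gene outside it may still encode part of the chain.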

How the data were processed

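Per the file headers, the deposited matrices were written by Cell Ranger 5.0.0 and hold raw UMI counts per gene and barcode. The submitters' processing notes name mm10 and Bowtie 0.12.2 without a role, and how introns and strand were handled was not given in the sources used here. Members and lists were chosen with earlier results of these data known. Nuclei needed 500 UMIs, 300 genes and at most 10% mitochondrial UMIs. Scrublet doublets (3171) were removed by its automatic threshold in untreated library 1. In the other 3, where that threshold marked under 0.5%, they were removed at a rate set by the number of barcodes in the library. Clustering used scanpy 1.11.5: 3000 variable genes without the 80 genes, 30 components, 15 neighbours, Leiden resolution 1. Clusters were named from 26 marker sets, and 5 stayed unnamed.

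Counts were summed per library and class. edgeR 4.0.16 (R 4.3.3; TMM, filterByExpr, glmQLFTest) gave log2 changes with Benjamini-Hochberg adjusted p over all genes tested, called under 0.05. DESeq2 1.42.0 was an alternative, as were other scalings, filters and left-out libraries. The fits were tested on simulated data with a log2 change of 1 in known genes. For losartan, edgeR called 45.7% of these genes in the whole kidney, 52% in the thick ascending limb and 12.6% in mural nuclei. For the thick ascending limb against the other classes it called 81.4%. A count of 0 calls with losartan therefore does not show that no gene changed. Levels are CPM by edgeR, not scaled for length, so they are not compared between genes. Shares are of summed UMIs, and 2 libraries per group limit their precision. Values per library are given for the members with the smallest p in each direction, for fixed isoform pairs and for the 2 largest called differences of each class in each direction. Further members in the class comparison, and the regulators, were picked after their values were seen. The replicate numbers of the titles were not taken to pair libraries. Values of 1 member gene chosen by these rules are not reported here; it stays in the counts, sums and medians.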

Additional observations from a re-analysis of the deposited data

How the results depend on the processing

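In the whole kidney DESeq2 called 1 gene where edgeR called 0. Within classes, the total of 0 calls became 1 with no composition factor, 1 with DESeq2, 16 with no filter on low counts, 2 without nuclei rich in ribosomal protein UMIs (chosen after seeing the data), and 0 to 64 when 1 library was left out; the 64 came without untreated library 1, and 40 of them were in lymphocytes. The median change over class medians, 0.11, ranged from -0.14 to 0.41 with 1 library left out. The cause of these shifts was not tested. The totals of calls within classes are given here without the share of all genes called in the same fits. Whether they exceed that share cannot be read from them. For classes against the mean of the others, the distal convoluted tubule median (0.27) was 0.22 with RLE factors, 0.19 with no composition factor and 0.36 without the ribosomal-rich nuclei, and that of the thick ascending limb (0.37) was 0.31 with RLE factors, 0.45 without those nuclei and 0.29 to 0.37 with 1 library left out. Its 49 higher genes became 32 to 48 with 1 library left out. The mural median fell to 0.11 and its 50 higher genes to 6 without the ribosomal-rich nuclei; the count was 9 with the 80 genes kept for clustering and 28 to 57 with 1 library left out. The 30 lower genes of parietal epithelium became 17 with no composition factor and 15 to 23 with 1 library left out. The endothelium median turned to 0.0079 without the ribosomal-rich nuclei, and Atp5sl in lymphocytes to -0.066 with the 80 genes kept for clustering. Counts of calls in these refits of the class comparison also stand without the share of all genes called.

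The replicate block (the number in the titles) called 1 gene in the whole kidney, Atp5sl, and 10 within classes, 9 of them in mural nuclei. In the class comparison, no replicate block, with group in place of library, gave 31 higher genes in the thick ascending limb and 13 lower ones in parietal epithelium. The share of all genes called in that fit is not given here. Deviations of libraries with the same number had a correlation of 0.393 over 2 pairs, too few to take the numbers as pairing.

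Of the named changes with losartan, 562 values under alternatives kept their direction and side of the threshold, 16 passed it and 32 changed sign. The main fits called 0 of these changes, so none of the 32 could have been a call. For the named class differences, 298 values stayed the same, 34 no longer passed the threshold and 1 changed sign. With 1 library left out, whole-kidney changes ranged across 0 for Cox4i1 (-0.15 to 0.15), Cox4i2 (-0.31 to 0.0033), Cox6a1 (-0.019 to 0.25), Cox6b1 (-0.32 to 0.079), Cox7a2 (-0.13 to 0.26), Cox8a (-0.12 to 0.23), Cox8b (-2.33 to 2.78), Ndufa4 (-0.032 to 0.22), Atp5g1 (-0.24 to 0.28), Atp5g2 (-0.033 to 0.11) and Atp5g3 (-0.056 to 0.0053). The same held for Ndufv3 in fibroblasts (-0.34 to 0.24). With no composition factor Cox6a1 (-0.050), Cox7a2 (-0.11), Cox8a (-0.12), Ndufa4 (-0.070) and Atp5g2 (-0.12) turned. Cox4i1 turned with DESeq2 (0.0039), with at most 2% mitochondrial UMIs (0.011), without ribosomal-rich nuclei (0.13) and with an equal class mix (0.10), as did Cox4i2 with that mix (0.39). Atp5g1 turned with DESeq2 (0.011), with no filter (0.0018), with the replicate block (0.014), with at most 2% mitochondrial UMIs (0.054) and without ribosomal-rich nuclei (0.10), and Atp5g3 with the last (0.065). Ndufb3 in macrophages turned with doublets kept (0.21). Copies with few UMIs, such as Cox8b, are limited by depth.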
